A study of Homo sapiens with 6 samples.

Results

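CYBA, NCF4 and RAC2 are the 3 genes of the phagocyte NADPH oxidase chosen by symbol for this account, out of 18086 gene symbols that appear in the peak lists. They were chosen by name, with earlier results of these data known. All 3 had at least 1 line in the lists for H3K4me3 (trimethylated lysine 4 of histone H3, found at active and poised promoters). None had a line in the lists for H3K27me3, the histone H3 methylation of Polycomb repression. The libraries came from HL-60, a human leukaemia line whose cell type label is myeloblast, grown in serum-containing medium with no further treatment named. The groups were parental cells and cells with the genotype JMJD3 KO, and the sources used here leave out whether the knockout was 1 clone or a pool. JMJD3, the product of KDM6B, is an enzyme that takes methyl groups off H3K27. Each genotype gave 1 chromatin immunoprecipitation library per mark, 4 libraries in all, and 2 input libraries were not analysed here. With 1 library per genotype and mark there is no replicate check of any difference below, no p-value is given, and the sequencing depth is unknown because the lists hold peak positions without read counts.

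The phagocyte NADPH oxidase moves electrons from NADPH across a membrane onto oxygen, and the superoxide it makes is used by neutrophils and macrophages against engulfed microbes. Its membrane core is a pair of proteins, gp91phox (CYBB) and p22phox (CYBA). In resting cells regulators that include p47phox (NCF1) and p40phox (NCF4) wait in the cytosol, and on stimulation they join the membrane core together with the small GTPase RAC2, the form of Rac most typical of blood cells. Inherited loss of a phox subunit causes chronic granulomatous disease. The oxidase is known to be acquired as granulocyte precursors mature, and PU.1, an Ets-family factor of myeloid cells, is known to act at several of its promoters.

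The promoters of the subunits differ in base composition, and the 250 bases before the RefSeq start are shown for 3 core subunits matched in the RefSeq promoter table (GRCh38.p14), 1 of which, CYBA, is among the 3 chosen genes. Capitals mark GGGCGG (a GC box, on either strand) in CYBA and GAGGAA (the core of a PU.1 motif, on either strand) in CYBB and NCF1. All are read 5′ to 3′ along the gene. The build differs from that of the peaks (hg19), so these windows were not placed against peaks.
CYBA (chr16:88651054-88651303, minus strand): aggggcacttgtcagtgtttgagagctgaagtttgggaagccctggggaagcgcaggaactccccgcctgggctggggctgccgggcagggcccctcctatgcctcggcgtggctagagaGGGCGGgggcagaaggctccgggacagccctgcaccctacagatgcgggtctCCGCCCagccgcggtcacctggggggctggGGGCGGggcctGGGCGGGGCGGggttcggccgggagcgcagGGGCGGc
CYBB (chrX:37779809-37780058, plus strand): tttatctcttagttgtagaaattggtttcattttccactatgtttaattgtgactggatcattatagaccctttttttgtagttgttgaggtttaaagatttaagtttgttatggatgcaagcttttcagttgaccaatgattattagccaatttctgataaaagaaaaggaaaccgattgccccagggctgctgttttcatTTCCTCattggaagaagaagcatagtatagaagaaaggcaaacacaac
NCF1 (chr7:74773761-74774010, plus strand): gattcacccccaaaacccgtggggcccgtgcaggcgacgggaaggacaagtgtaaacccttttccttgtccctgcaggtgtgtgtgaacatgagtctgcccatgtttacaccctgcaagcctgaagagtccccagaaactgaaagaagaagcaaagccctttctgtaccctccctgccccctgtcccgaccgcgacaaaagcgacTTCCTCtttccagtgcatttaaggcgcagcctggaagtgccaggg
The CYBA window was 73.6% G+C, above 86.9% of the 35116 promoters in the table, and held 18 CpG dinucleotides with an observed over expected ratio of 0.56, equal to the table's median of 0.56. It held 6 matches to GGGCGG, starting 130, 78, 48, 37, 32 and 7 bases before the start, of which 1 neighbouring pair overlapped. At least 1 GGGCGG occurred in 42.6% of all windows of this length. The CYBB window was 34.0% G+C with 1 CpG (ratio 0.14), and the NCF1 window was 56.4% G+C with 9 CpG (ratio 0.46). Each of these 2 held 1 match to GAGGAA, read on the opposite strand as TTCCTC, starting 48 bases before the CYBB start and 45 bases before the NCF1 start. GAGGAA occurred in 23.6% of all windows and not in that of CYBA. TATAAA, the core of a TATA box, was in none of the 3 windows and in 10.7% of all.

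The lists as a whole set the background for what follows. The H3K4me3 lists held 33470 peaks in parental cells against 24943 in the knockout, with median widths of 359 and 260 bp. The H3K27me3 lists held 3578 and 3234. Only peaks within 20 kb of a transcript start are listed. Peak numbers run up to 38524 and 27693 for H3K4me3, and up to 17383 and 15618 for H3K27me3. Going by these numbers, most H3K27me3 peaks were left out of the lists. The H3K27me3 libraries carry that mark in their titles while their antibody label reads H3K4me3, and the title was followed. KDM6B, the targeted gene, had 3041 bp of promoter H3K4me3 in parental cells and 710 bp after knockout, which does not check its coding sequence. Of 8 fixed markers of granulocyte precursors, 6 had promoter H3K4me3 in both genotypes, including MPO, CEBPA and SPI1, while ELANE and AZU1 had none in either. Among lymphoid markers, CD4 and CD79A were marked in both, and CD3E, CD8A and MS4A1 in neither. Of 5 erythroid and megakaryocyte markers, KLF1 was marked in both and ITGA2B in knockout cells only. Of 7 epithelial and fibroblast markers 0 were marked.

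H3K4me3 was listed near the start of all 3 chosen genes in both genotypes, and at each the summed width was smaller in the knockout list by less than 2-fold. Promoter peaks are those centred within 5 kb of a listed transcript start or lying across it, and their widths in bp are summed per gene. Width says how far a called region reaches and nothing of how much of the mark it holds. CYBA went from 488 to 305 bp, NCF4 from 2231 to 1562 bp and RAC2 from 2943 to 2009 bp. The log2 ratios of knockout over parental width were -0.68, -0.51 and -0.55. A smaller width in the knockout was the rule, seen at 95.9% of the 11190 genes marked in both lists. With a 2-fold limit, 0 of the 3 genes narrowed, where 50.6% of all genes marked in both lists did, and their median of -0.55 stood beside -1.01 for all those genes. Higher ratios than those of CYBA, NCF4 and RAC2 were found at 29.0%, 19.9% and 21.8% of the genes. The choice of the 3 was made with earlier results of these data known, and 3 genes are too few to set the group apart from others.

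**Figure D1:**
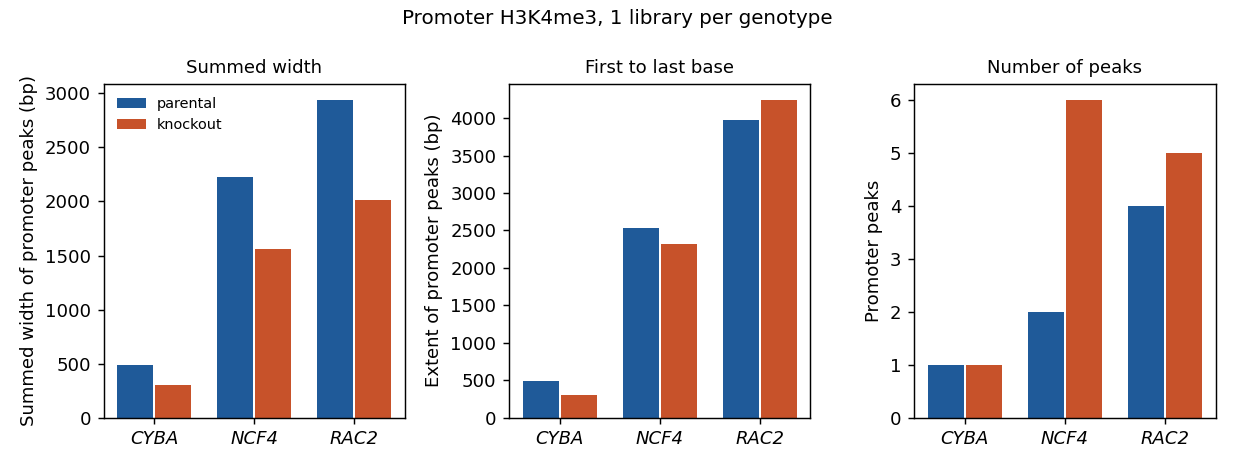
Promoter H3K4me3 at CYBA, NCF4 and RAC2 in parental (blue) and knockout (orange) HL-60, as summed peak width in bp, as extent from the first to the last base in bp and as number of peaks, with 1 library per bar and no error bars. The summed width was lower in the knockout at all 3 genes, while the number of peaks rose from 2 to 6 at NCF4 and from 4 to 5 at RAC2.

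**Figure D2:**
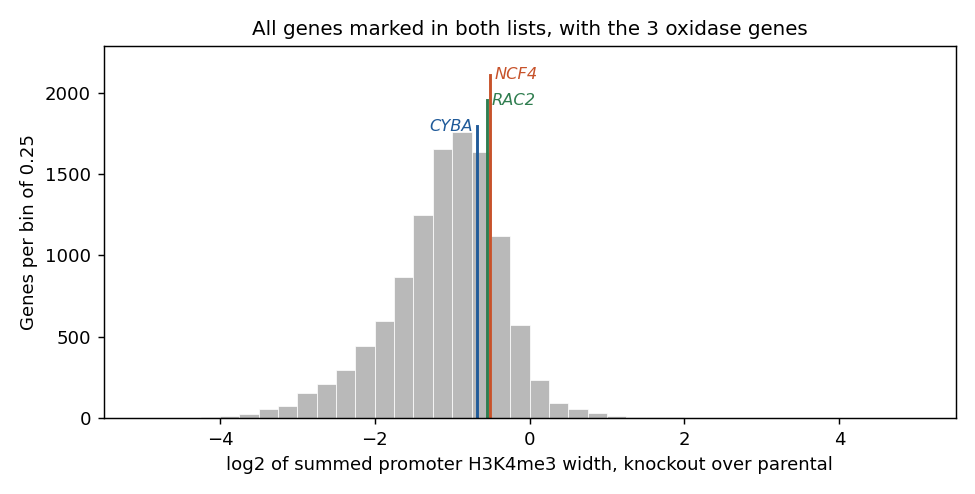
Histogram of the log2 ratio of summed promoter H3K4me3 width, knockout over parental, for the genes marked in both lists (x axis log2, y axis genes per bin of 0.25). The coloured lines at -0.68, -0.55 and -0.51 mark CYBA, RAC2 and NCF4, all to the right of the median of -1.01.

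The width in parental cells bears on these ratios. Genes with a parental promoter width up to 700 bp, as at CYBA, had a median log2 ratio of -0.53 (960 genes), and 30% of them narrowed by the 2-fold limit. Genes from 1500 to 3000 bp, as at NCF4 and RAC2, had a median of -1.06 (5088 genes), and 53.7% narrowed. Against genes of like width, NCF4 and RAC2 therefore lay above the median and CYBA lay below it. Both width limits were chosen after the values were seen. In the parental list, CYBA was wider than 10.1% of the marked genes, NCF4 wider than 73.7% and RAC2 wider than 87.2%. In the knockout list these shares were 13.3%, 85.3% and 93.0%, and the order of the 3 genes was the same in both.

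CYBA, the gene of p22phox that stabilises the membrane core and anchors p47phox, had 1 promoter peak in each genotype. Its listed start (NM_000101) lies at 88717492 on chromosome 16 (hg19), and the gene is transcribed towards lower coordinates. The parental peak ran from chr16:88716854-88717341, and the knockout peak, chr16:88716991-88717295, lay wholly inside it. Both began after the start, at 151 bp (parental) and 197 bp (knockout), and ended at 639 and 502 bp. The region thus drew in from both sides, and 62.5% of the parental width remained covered.

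Away from its promoter, CYBA had 4 further H3K4me3 peaks in parental cells and none in knockout cells. They were 260, 167, 165 and 228 bp wide, and their centres lay 11597 to 12927 bp upstream. These peaks surround the starts of MVD, an enzyme of the mevalonate pathway, and of the antisense gene SNAI3-AS1, and were also listed for those genes. MVD and SNAI3-AS1 shared these peaks as promoter peaks, 820 bp together in parental cells, and neither had a promoter peak in knockout cells. Over the whole parental list, 52.6% of H3K4me3 peaks were overlapped by a knockout peak and the rest were not. Among genes marked in either list, 13.1% had the mark in the parental list alone and 1.36% in the knockout list alone, and the 3 oxidase genes were in neither class. Within the whole listed range of 20 kb, CYBA therefore went from 5 peaks of 1308 bp to 1 peak of 305 bp (log2 ratio -2.10). The CYBA promoter peak itself was listed, at over 10 kb, for MVD and SNAI3-AS1 and for IL17C, a cytokine gene whose start lies 12492 bp away on the other side and which had no promoter peak in either genotype. Peak numbers run along the genome and had no break here, so neither H3K4me3 list held another peak between 88638069 and 88752217.

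Most genes around CYBA had lower ratios than CYBA itself. Within 1 Mb, both lists marked 16 other genes. Their log2 ratios had a median of -2.02, and 14 narrowed by the 2-fold limit. Of these 16, 15 had a lower ratio than CYBA. PIEZO1, a mechanosensitive ion channel gene 134 kb away, went from 1926 to 160 bp (-3.59), and the corepressor gene CBFA2T3 from 2254 to 284 bp (-2.99). ZC3H18 was the 1 gene that held its width better, from 461 to 434 bp (-0.09). These 3 genes were chosen after their values were seen. All H3K4me3 peaks within 1 Mb fell in number from 71 to 25, a ratio of 0.352, while the median log2 ratio of chromosome 16 as a whole was -0.98. What sets this stretch apart was not tested.

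NCF4, the gene of p40phox, which binds the phosphoinositide of the phagosome membrane, kept nearly the same stretch of chromatin but in smaller pieces. Its listed start (NM_000631 and NM_013416) lies at 37257029 on chromosome 22, transcribed towards higher coordinates. Parental cells had 2 peaks, chr22:37257017-37258366 of 1350 bp and chr22:37258668-37259548 of 881 bp. Knockout cells had 6 peaks of 217 to 327 bp, between 37257345 and 37259658. Each parental peak was overlapped by 3 knockout peaks, and all 6 knockout peaks overlapped a parental one. From the first to the last base the region measured 2532 bp in parental cells and 2314 bp after knockout (log2 ratio -0.13), so the loss of width lay mostly in gaps between pieces. Peaks filled 88.1% of that extent in parental and 67.5% in knockout cells, where the medians of all genes marked in both lists were 78.1% and 63.6%. The 2-fold limit was passed when peaks had to lie within 1 kb of the start (-1.34) or be at least 300 bp wide (-1.80). The first setting left 1350 bp of parental and 532 bp of knockout width, and the second 2231 and 642 bp. More peaks with a smaller summed width were seen at 2543 of those genes, or 22.7%.

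The first 315 bp after the NCF4 start were covered in parental cells and not in knockout cells. The parental peak reached from -13 to 1337 bp relative to the start, while the first knockout peak began 315 bp after. NCF4 was the only 1 of the 3 genes with a peak across its start, and it had that in parental cells alone. Such a change occurred at 17.7% of the genes marked in both lists, and 72.3% had no peak across a start in either. No second gene was listed with the NCF4 peaks. The flanking peaks of the parental list ended at 37172087 and began at 37309709, the latter at CSF2RB, so the NCF4 region stood alone.

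RAC2, the blood-cell Rac that completes the active oxidase, had the widest promoter region of the 3 genes in both genotypes. Its listed start (NM_002872) lies at 37640339 on chromosome 22, transcribed towards lower coordinates. Parental cells had 4 peaks: 1 of 283 bp upstream, then peaks of 1252, 664 and 744 bp downstream of the start. Knockout cells had 5 peaks: 1 of 403 bp upstream, then peaks of 218, 419, 530 and 439 bp. All 4 downstream knockout peaks lay inside parental peaks, and the parental peak chr22:37638870-37640121 was replaced by 2 pieces that covered 50.9% of it. Downstream, the listed region reached to 3381 bp from the start in parental cells and to 3105 bp in the knockout. In both genotypes no peak lay across the start itself.

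The upstream peak of RAC2 was the 1 promoter peak of the 3 genes with no overlap between genotypes. Over all peaks, 52.6% of parental ones were overlapped by a knockout peak and 88.7% of knockout ones by a parental peak. In parental cells the upstream RAC2 peak ran from -599 to -316 bp relative to the start (chr22:37640656-37640938). In knockout cells it ran from -1143 to -740 bp (chr22:37641080-37641482) and was wider, 403 against 283 bp. As a result the extent from the first to the last base was 3980 bp in parental cells and 4248 bp in the knockout (log2 ratio 0.09), against a median of -0.51 over all genes marked in both lists. Measured by extent, 31.2% of those genes shrank by the 2-fold limit. Peaks filled 73.9% of the RAC2 extent in parental and 47.3% in knockout cells.

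**Figure D3:**
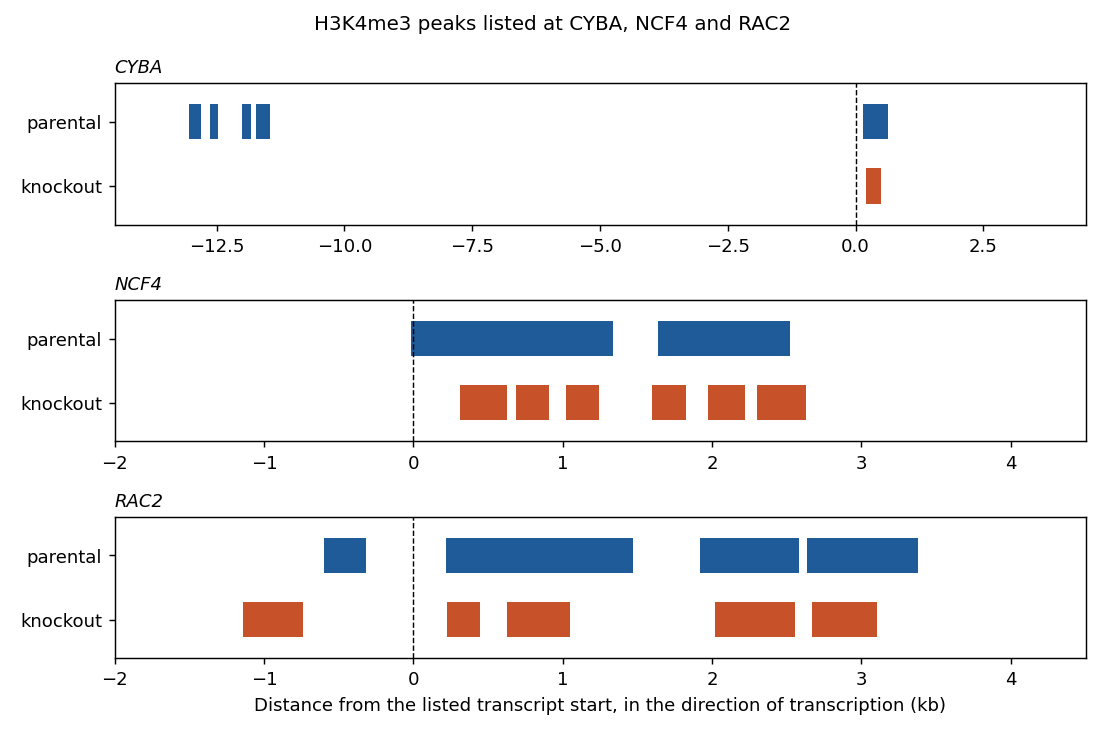
Positions of the listed H3K4me3 peaks at CYBA, NCF4 and RAC2 in parental (blue) and knockout (orange) cells, in kb from the transcript start (dashed line) along the direction of transcription, with a wider scale for CYBA. The 2 parental blocks at NCF4 stand over 6 knockout pieces, the upstream RAC2 peaks do not overlap, and the 4 upstream peaks of CYBA are in the parental track only.

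Over the 3 genes, knockout promoter peaks lay largely inside parental ones. Of the knockout width, 100% at CYBA, 90.2% at NCF4 and 79.9% at RAC2 lay in parental promoter peaks, beside 82.2% over all peaks of the list. Of the parental promoter width, 62.5%, 63.2% and 54.6% were covered by knockout peaks, beside 38.9% over all peaks. The sets are unlike: the shares over all peaks include peaks far from starts and peaks at genes marked in 1 list only. The parental peaks upstream of CYBA, which had no knockout overlap, are not counted in its share. Around NCF4 and RAC2 the ratios were closer to those of all genes: within 1 Mb the median log2 ratio was -0.79 over 21 genes and -0.81 over 25 genes, and 17 and 21 of them had a lower ratio than NCF4 and RAC2. The windows of these 2 genes overlap on chromosome 22, whose median was -0.92, so they are not separate measurements. NCF4 and RAC2 lie in each other's window, and each was left out of the other's count and median. In these windows and in that of CYBA, some neighbouring symbols had identical widths in both lists and were counted as separate genes.

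**Figure D4:**
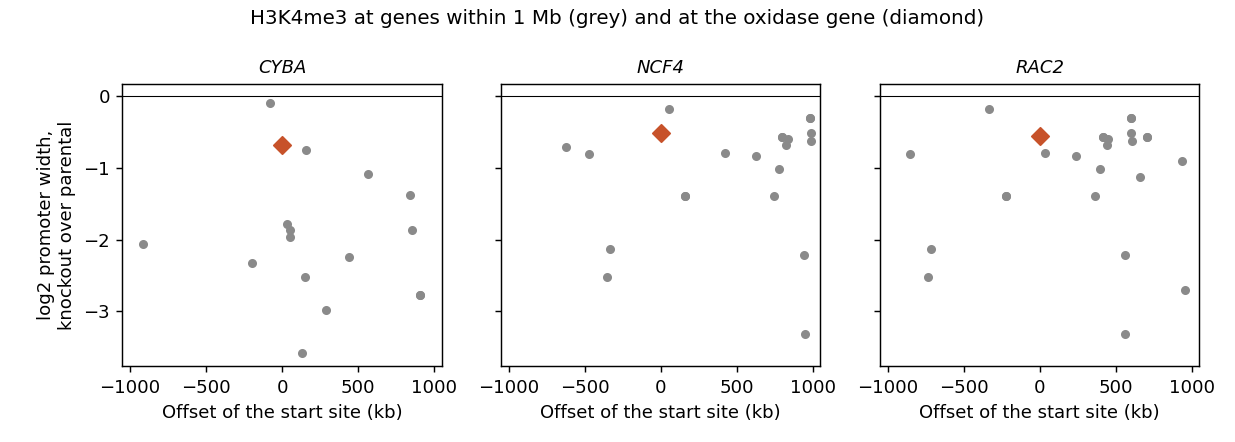
Log2 ratio of promoter H3K4me3 width (knockout over parental) for genes marked in both lists within 1 Mb of CYBA, NCF4 and RAC2 (grey points, x axis offset of their start in kb), with the oxidase gene itself as a diamond at 0. The points around CYBA have a median of -2.02 and 15 of 16 lie below the diamond, while those around NCF4 and RAC2 have medians of -0.79 and -0.81. NCF4 and RAC2 are left out of each other's grey points.

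H3K27me3, the mark that JMJD3 removes, was not listed within 20 kb of CYBA, NCF4 or RAC2 in either genotype. Of all gene symbols, 18.2% had an H3K27me3 peak within 20 kb in at least 1 genotype. The listed peak nearest to CYBA lay 3625 kb away in parental and 3626 kb away in knockout cells, at KIAA0513. For NCF4 the nearest listed peak was 1984 kb away in parental cells, at NPTXR, and 142 kb away in knockout cells, a peak of 1732 bp at CACNG2, a neuronal calcium channel subunit gene. For RAC2 the distances to these same 2 peaks were 1601 and 525 kb. The lists leave out peaks far from any start, and the parental peak numbers skip 5 peaks between 32814917 and 39240503 on chromosome 22, whose positions are unknown. On chromosome 16 no H3K27me3 peak was listed on the other side of CYBA in either genotype. Peaks left out around CYBA were therefore not counted, and its distance does not show a stretch free of the mark. In each genotype, then, the 3 promoters carried H3K4me3 alone among the 2 marks, and both genotypes had the same pair of states. The depth of the H3K27me3 libraries limits this: a weak signal that was not called as a peak would not be seen.

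The core subunit genes CYBB and NCF1 had no promoter H3K4me3 in either genotype. An H3K4me3 peak within 20 kb in at least 1 genotype was listed for 86.3% of all symbols, and for CYBA, NCF4, RAC2 and CYBB. CYBB, the gene of the electron-carrying subunit gp91phox on the X chromosome, had no H3K4me3 peak within 20 kb in parental cells. The nearest listed parental peak lay 67.2 kb away at DYNLT3. Parental peak numbers skip 4 H3K4me3 peaks between 30908269 and 37706343, whose positions are unknown, so an unlisted peak may lie nearer. In knockout cells CYBB had 4 peaks within 20 kb, 928 bp in sum. Of these, 3 lay 6045, 6540 and 7453 bp downstream of the start (170, 319 and 245 bp wide, the widest chrX:37645651-37645969), and 1 of 194 bp lay 12691 bp upstream. Peaks within 20 kb in the knockout list only were found for 1.28% of all symbols, and for 11 of 418 X-chromosome genes with a peak in either list (2.63%). For 40.9% of those X-chromosome genes the parental list alone had peaks. Genes with at least 4 such peaks in knockout cells and 0 in parental cells numbered 3 (0.0166%), namely CYBB, ATP12A and ZNF329, against 188 genes in the opposite direction. The limit of 4 equals the count of CYBB itself, so CYBB falls in this class by construction and the share does not measure how unusual it is. CYBB was named for its place in the oxidase. The other 2 genes were chosen after their values were seen.

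NCF1, the gene of the organiser p47phox, had no line in any of the 4 lists. NCF1 has near-identical copies on the same chromosome, so reads from it may not be placed uniquely and its missing line is uncertain. Of the copies NCF1B and NCF1C, 1 parental peak of 176 bp was listed 15636 bp from NCF1B. No H3K27me3 peak was listed within 20 kb of CYBB or NCF1. CYBA, NCF4 and RAC2 thus had promoter H3K4me3 in both genotypes and CYBB and NCF1 had none, and 61.9% of all symbols in the lists were marked in both.

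**Figure D5:**
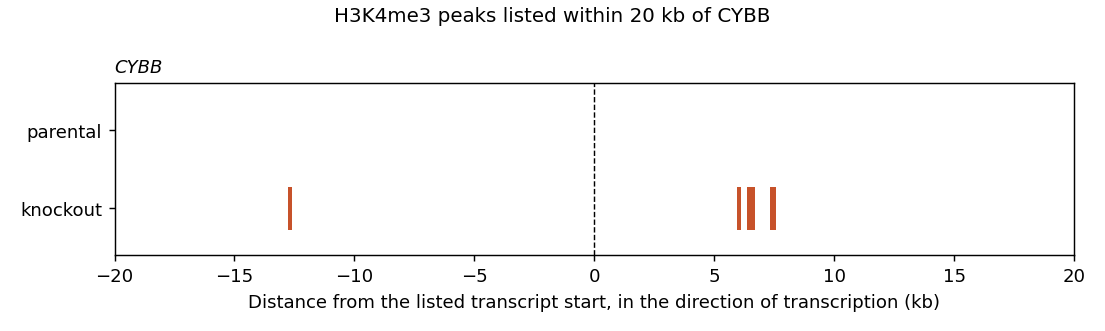
H3K4me3 peaks listed within 20 kb of CYBB in parental (blue) and knockout (orange) cells, in kb from the transcript start (dashed line) along the direction of transcription. CYBB has 4 peaks in the knockout track and none in the parental one.

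The closest relatives of RAC2 had smaller regions in both genotypes. RAC1, the ubiquitous Rac, went from 1595 to 450 bp of promoter H3K4me3 (log2 ratio -1.83), a narrowing past the 2-fold limit. RAC3, a form known from the nervous system, had 1499 bp in parental cells and no promoter peak in knockout cells. With no replicates, none of these differences between genes was tested.

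Genes that switch the oxidase on or help it assemble were nearly all marked in both genotypes. Of 21 such genes, 19 were marked in both lists, where 61.9% of all symbols were. Of the 19, 13 narrowed by the limit, beside 50.6% of all genes marked in both lists, and their median was -1.30 beside -1.01. BTK, a tyrosine kinase gene on the X chromosome, had the lowest ratio (2374 to 355 bp, -2.74), and the kinase gene AKT1 the highest (568 to 463 bp, -0.29). PAK1, a Rac-activated kinase, was marked in parental cells only (593 bp), and S100A8, a calcium-binding protein that aids assembly, in knockout cells only (431 bp). S100A8 and S100A9 were the 2 genes of this list with an H3K27me3 peak within 20 kb, 1 in each genotype, and neither had one within 5 kb.

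Genes that supply NADPH or handle oxidants were likewise marked in both genotypes with 1 exception. Of 19 genes, 18 were marked in both lists and PRDX2, a peroxidase gene, in parental cells only (180 bp). Of the 18, 8 narrowed by the limit and the median was -0.96, close to the 50.6% and -1.01 of all genes marked in both lists, and 61.9% of all symbols were so marked. TXNRD1, thioredoxin reductase, had the lowest ratio (2957 to 522 bp, -2.50) and TKT, transketolase, the highest (2676 to 2390 bp, -0.16). MPO, which turns the hydrogen peroxide formed downstream of the oxidase into hypochlorous acid, had the widest region of this list, 5524 bp in parental cells and 2550 bp in the knockout (-1.12). Of 10 homologues and partners that serve other tissues, NOXA1 and NOXO1 were marked in both lists, with ratios of -0.82 and -0.53. The other 8, which include NOX1, NOX4, DUOX1 and DUOX2, had no H3K4me3 or H3K27me3 peak within 20 kb.

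The profile of the 3 genes over the 4 libraries was shared with many others. By summed promoter width on a log2 scale with 100 bp added, the genes on other chromosomes nearest to CYBA were RRP7A (495 and 299 bp) and BRPF3 (471 and 311 bp). Nearest to NCF4 were C1orf131 and GNPAT (both 2219 and 1570 bp), and nearest to RAC2 were ATP5A1 (2988 and 2030 bp) and ASB7 (2908 and 1977 bp). All of these had 0 bp of promoter H3K27me3 in both genotypes. Within a distance of 0.1 on this scale there were 12 genes for CYBA, 101 for NCF4 and 57 for RAC2.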

How the data were processed

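The 4 deposited files are peak lists joined to RefSeq transcripts, per the file headers, with 1 line per peak and transcript start within 20 kb. Tools in the submitters' processing notes are MACS2 2.1.1, SAMtools and BWA 0.7.10, and the build is hg19. Peak-calling settings and the use of inputs are not given in the sources used here. Each score deposited by the authors follows from the distance alone (largest error 5e-13) and was not used as peak strength. Starts were read as counted from 0 and are printed counted from 1; widths are end minus start.

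Lines were selected by gene symbol, and distinct peaks were counted once. Overlaps (at least 1 bp) used bedtools 2.31.1. A gene was called changed at a 2-fold ratio of summed promoter width. No test was run, because each group has 1 library. Ratios were computed over all genes, and the code was tested on simulated data. Directions of transcription come from the RefSeq promoter table for CYBA and CYBB; those of NCF4 and RAC2 were entered from general knowledge of these genes, and what is called upstream or downstream there rests on them. Exons of hg19 were not used here. Of the symbols, 16271 matched RefSeq of GRCh38.p14 and 1225 an older name. Genes and lists were chosen with earlier results of these data known. Named genes are the 3 chosen genes, CYBB and NCF1, genes sharing a peak, per list the extremes and those marked in 1 genotype, RAC1, RAC3, MPO and the 2 most alike genes each. Some genes and lists under that rule are not reported here. Alternatives covered the promoter window, peak assignment, peak width, list length and overlap.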

Additional observations from a re-analysis of the deposited data

How the results depend on the processing

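The log2 ratios of CYBA, NCF4 and RAC2 were unchanged with a 10 kb window, for the nearest gene only, for lists of equal length and for merged peaks. NCF4 passed the 2-fold limit within 1 kb of the start (-1.34) and for peaks of at least 300 bp (-1.80), and CYBA passed it over 20 kb (-2.10), where the upstream peaks count. Under each of these 3 settings 1 gene of the 3 narrowed, against 0. RAC2 stayed under the limit throughout and turned to 0.094 when measured by extent, a measure added after the data were seen. When only peaks across a start counted, 0 of the 3 genes were marked in both lists and no ratio exists. For all genes the median was -0.98 within 1 kb, -0.97 for the nearest gene, -0.91 for lists of equal length, -1.03 over 20 kb and -1.14 for peaks of at least 300 bp. The share narrowed by the limit was 49.2% within 1 kb, 52.2% over 20 kb, 48.4% for the nearest gene, 57.1% for peaks of at least 300 bp and 44.7% for lists of equal length. No H3K27me3 peak was listed at the 3 genes under any of these settings. At NCF4, 0% of the parental peaks had 50% of their width covered by 1 knockout peak. No paired analysis was possible because each genotype and mark has 1 library, and no library could be left out for the same reason.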
